A study of Mus musculus with 16 samples.

Results

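The comparison described here is the effect of LPC (lysophosphatidylcholine) on gene expression in imiquimod-treated mouse ear skin, taken over both days of killing together. It used 16 of the 16 libraries of the study. The 8 libraries from LPC-injected ears were set against the 8 libraries from saline-injected ears, with day as an additive term, so that the LPC term is 1 common difference for day 4 and day 7. Each library came from 1 BALB/c mouse aged 8 weeks, with 4 mice per treatment and day. Imiquimod (IMQ) was applied to the ear of every mouse, vehicle mice included, and no ear without imiquimod is analysed here. The LPC groups received 10 µl of 10 mM LPC into the dermis once per day, over 6 days in a row for the whole course, and the vehicle groups received 10 µl of normal saline on the same schedule. Mice were killed on day 4 or day 7, and how many injections the day 4 mice had received is not stated in the labels. RNA came from whole lesional skin, so a lower level can mean fewer cells of a type or less RNA per cell, and these cannot be told apart.

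LPC is a phospholipid with a single acyl chain. It is made from phosphatidylcholine by phospholipase A2 enzymes and by lecithin:cholesterol acyltransferase, is re-acylated by LPCAT enzymes, and is cut by autotaxin (Enpp2) to lysophosphatidic acid. It disturbs membranes at high concentration, and it is widely used to strip myelin from nerves experimentally. Imiquimod is an agonist of the receptor TLR7 that, on mouse skin, gives a psoriasis-like lesion driven by the IL-23 and IL-17 cytokines. Injured skin turns on immediate early transcription factors such as Fos and Jun within a short time, and these form the AP-1 factor, which is known to drive matrix metalloproteinase genes.

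Each library held between 18704197 and 20131513 expected read counts over 17215 to 17730 listed genes, and 15782 genes were tested. Basal keratinocyte genes showed that the tissue was skin, since Krt14 ranged from 5554 to 21155 and Krt5 from 3144 to 10814 CPM (counts scaled to a common library size) over the 16 libraries. Within a group, libraries correlated at 0.891 to 0.984 across genes (log2 CPM). Principal component 1 of the 500 most variable genes held 40.7% of their variance. On it the vehicle libraries of day 4 lay between -50.8 and -16.5 and the LPC libraries of day 4 between 12.2 and 42.4. At day 7, LPC mice 1 and 3 lay at 48.7 and 50.2, whereas LPC mouse 2 (-11.5) lay within the range of the vehicle libraries of that day (-15.8 to 13.7) and LPC mouse 4 (-26.5) below it. Counts of called genes in each list are therefore also given without LPC day 7 mice 2 and 4. These 2 libraries were picked for lying with or beyond the vehicle libraries, so leaving them out favours more calls. Higher counts without them are no independent support for an LPC effect.

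Over both days many more genes were called risen than fallen in the main test, though not in every fit. Over all genes tested, 49.5% had a positive log2 fold change. At an adjusted p below 0.05 in edgeR's quasi-likelihood test, 320 of 15782 genes (2.03%) were called, of which 284 (1.80%) rose and 36 (0.228%) fell. The counts of called list members below stand beside this 2.03% of all genes. A change of at least 2-fold was reached by 135 of the risen and 15 of the fallen genes, or 0.950% of the genes tested, and 43 and 3 passed 4-fold. The median log2 fold change was 0.95 among the risen genes, -0.83 among the fallen and 0.00 over all genes tested (-0.0035). The 8 LPC libraries lay wholly above the 8 vehicle libraries in 35 genes (0.222%) and wholly below them in 6 (0.038%), of which 33 and 3 were called. On log2(FPKM + pseudocount) the split was 191 risen and 57 fallen with a pseudocount of 0.1, and 177 and 57 with 1. With other tools on the same counts it was 932 and 378 (DESeq2), or 1471 and 1629 (limma-voom with sample weights). All 320 genes were among those called by each of these tools on counts. In edgeR the split was 400 risen and 933 fallen from day 4 libraries alone, and 28 and 17 from day 7 alone. Without LPC day 7 mice 2 and 4 it was 2171 and 2203.

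**Figure D1:**
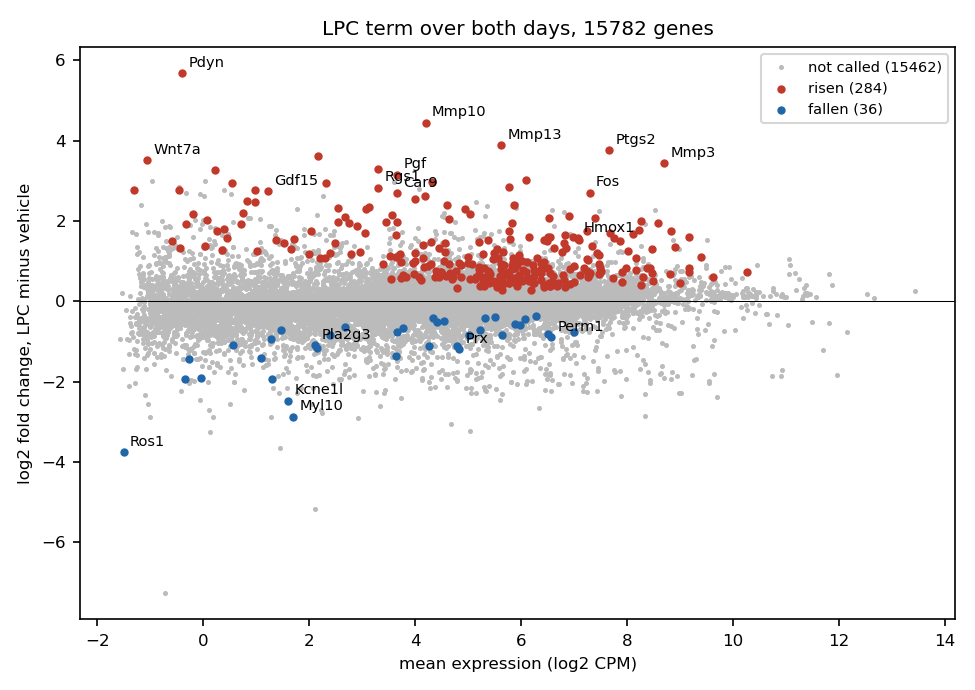
Each point is 1 of 15782 genes, with its mean expression (log2 CPM) on the x axis and the log2 fold change of LPC minus vehicle over both days on the y axis. The 284 risen genes (red) include Mmp10 at 4.45 and, at low expression, Pdyn at 5.69, and the 36 fallen genes (blue) are fewer.

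The number of called genes depended on single libraries. It fell to 153 without vehicle day 4 mouse 1, 113 without mouse 3, 147 without LPC day 4 mouse 1 and 109 without LPC day 4 mouse 4. Among the day 7 libraries it fell to 204, 201, 100 and 133 without vehicle mice 1, 2, 3 and 4, and to 128 and 115 without LPC mice 1 and 3. In the other direction, it rose to 818 without LPC day 7 mouse 2, to 936 without LPC day 7 mouse 4, to 480 without LPC day 4 mouse 2, and to 4374 without LPC day 7 mice 2 and 4 together. In those 4 fits 318, 319, 307 and 320 of the 320 genes were called again. Vehicle day 4 mice 2 and 4 and LPC day 4 mouse 3 moved it by less than 1.5 times, to 223, 225 and 243.

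**Figure D2:**
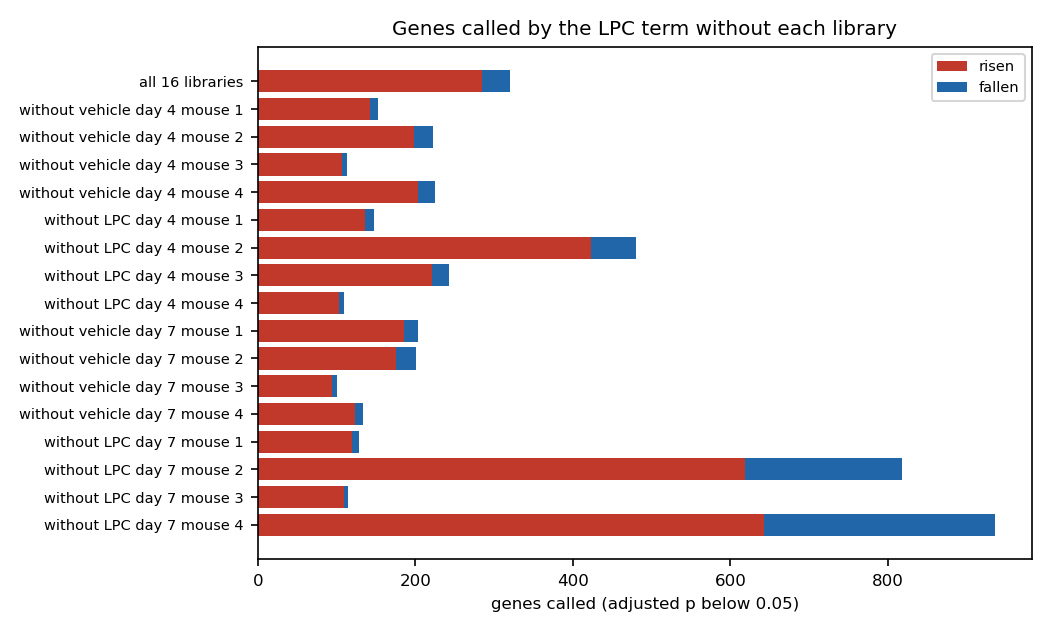
Bars give the number of genes called by the LPC term with all 16 libraries and without each library in turn, split into risen (red) and fallen (blue). Counts run from 100 without vehicle day 7 mouse 3 to 936 without LPC day 7 mouse 4, against 320 with all libraries.

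The gene with the smallest p was Rgs1, a regulator of G protein signalling of activated leukocytes. Its level over the 8 vehicle libraries was 1.06 at the lowest, 2.34 at the median and 4.48 CPM at the highest, against 8.72, 16.5 and 27.8 CPM over the 8 LPC libraries. Every LPC library lay above every vehicle library, and the log2 fold change was 2.83 ± 0.32 (SE, n = 8 per treatment, edgeR adjusted p = 0.00255), or 7.11-fold. Of the 15 regulators of G protein signalling tested, 3 rose and none fell by that test, with Rgs2 at 1.18 ± 0.22 (adjusted p = 0.0161) and Rgs16 at 1.22 ± 0.28 (adjusted p = 0.0395) beside Rgs1. The list's median log2 fold change was 0.19, and its 3 calls of 15 stand beside 2.03% of all genes. The count was 7 without LPC day 7 mice 2 and 4.

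Of the immediate early genes, the transcription factors and regulators that cells switch on first after a stimulus, 10 of 22 members rose and none fell. Their median log2 fold change was 0.99 against 0.00 over all genes, of which 2.03% were called. Fos, a subunit of AP-1, was at 23.5, 35.7 and 62.0 CPM (lowest, median and highest) in vehicle libraries and at 106, 207 and 794 CPM in LPC libraries. The groups did not overlap, and the log2 fold change of Fos was 2.71 ± 0.38 (adjusted p = 0.00791). Jun, its main partner, ran from 81.7 to 195 CPM in vehicle and from 204 to 735 CPM in LPC libraries, again with no overlap (1.67 ± 0.26, adjusted p = 0.00918). Atf3, a stress-induced transcription factor that can pair with Jun, rose by 1.96 ± 0.33 (adjusted p = 0.0120). The other risen members were Fosl1 (2.40), Ier3 (2.01), Dusp1 (1.77), Klf6 (1.49), Zfp36 (1.26), Junb (1.11) and Maff (0.98). Egr1 (1.00, adjusted p = 0.055) and Fosb (2.33, adjusted p = 0.061) did not pass the test. The count fell to 6 without any 1 of LPC day 4 mice 1 and 4, LPC day 7 mouse 3, vehicle day 4 mouse 3 and vehicle day 7 mice 3 and 4, and it was 18 without LPC day 7 mice 2 and 4 together.

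Feedback genes that damp this signalling rose as well. Dusp1, a phosphatase that switches off MAP kinases, was at 89.1, 139 and 162 CPM in vehicle libraries and at 198, 368 and 1099.6 CPM in LPC libraries (lowest, median and highest). The groups were apart, with a log2 fold change of 1.77 ± 0.28 (adjusted p = 0.00918). Among MAP kinase phosphatases and ERK feedback genes 6 of 18 rose and none fell (33.3% against 2.03% of all genes, median 0.43). The risen ones were Dusp1, Dusp5 (1.41), Spred3 (1.24), Spry2 (1.19), Errfi1 (0.93), which restrains the EGF receptor, and Spred1 (0.46). The count was 3 without LPC day 4 mouse 1 or 4, LPC day 7 mouse 3, vehicle day 4 mouse 3 or vehicle day 7 mouse 3 or 4, and 9 without LPC day 7 mice 2 and 4 together. In the NF-kB list of 20 members, made of feedback inhibitors and genes of activated endothelium, 4 rose and none fell (median 0.66). Tnfaip3 (A20) rose by 1.66 ± 0.39 (adjusted p = 0.0405), Nfkbia, the inhibitor that holds NF-kB in the cytoplasm, by 1.35 ± 0.29 (adjusted p = 0.0288), and the leukocyte adhesion receptor Icam1 by 0.71 ± 0.17 (adjusted p = 0.0465). Nfkbie was the fourth. This NF-kB count ran from 0 to 8 over the fits without 1 library, and it moved by under 1.5 times only without LPC day 4 mouse 3, LPC day 7 mouse 4 or vehicle day 4 mouse 4. It was 12 without LPC day 7 mice 2 and 4.

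**Figure D3:**
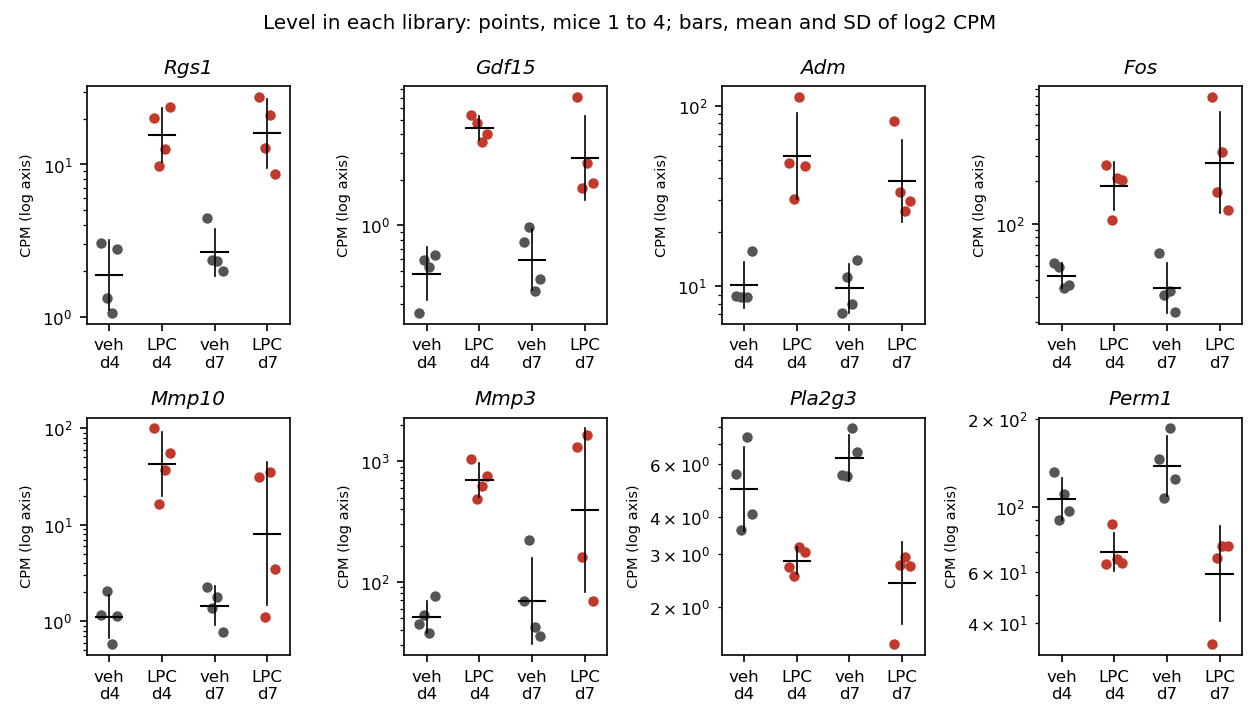
CPM on log axes of 8 genes in each library, by treatment (veh, vehicle in grey, LPC in red) and day (d4, d7), with the mean and SD of log2 CPM of each group of 4. Rgs1, Gdf15, Adm and Fos are higher and Pla2g3 and Perm1 lower in every LPC library than in every vehicle library, whereas Mmp10 overlaps through LPC day 7 mouse 2 and Mmp3 through LPC day 7 mice 2 and 4.

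Of 20 tested genes of matrix metalloproteinases (MMPs), enzymes that cut collagen and other matrix proteins, 7 rose and none fell. Over all genes 2.03% were called. Mmp10 (stromelysin 2) was at 0.580, 1.28 and 2.29 CPM in vehicle libraries and at 1.10, 33.5 and 100 CPM in LPC libraries (lowest, median and highest). Only the LPC day 7 mouse 2 library, at 1.10 CPM, lay within the vehicle range, and the log2 fold change was 4.45 ± 0.71 (adjusted p = 0.00918), or 21.9-fold. Mmp13 (collagenase 3) was at 0.628, 5.52 and 11.8 CPM in vehicle and at 10.2, 92.3 and 194 CPM in LPC libraries, a log2 fold change of 3.90 ± 0.62 (adjusted p = 0.00918). The groups overlapped only through that same LPC library. Mmp3 (stromelysin 1) ran from 35.3 to 220 CPM in vehicle and from 69.0 to 1639.5 CPM in LPC libraries (3.45 ± 0.60, adjusted p = 0.0121). Mmp12 (macrophage elastase) rose by 3.62 ± 0.66 (adjusted p = 0.0142). Mmp1b rose by 3.29 ± 0.62 (adjusted p = 0.0163) and Mmp1a by 2.94 ± 0.60 (adjusted p = 0.0229), 2 closely similar collagenase copies between which estimated counts can be split with error.

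These 6 genes lie side by side on chromosome 9, between chr9:7272514-7283333 (Mmp13) and chr9:7502342-7510242 (Mmp10) in the RefSeq annotation of GRCm38.p6. Their neighbours Mmp8 (neutrophil collagenase, 1.73 ± 0.71, adjusted p = 0.183) and Mmp27 (-0.08 ± 0.39, adjusted p = 0.916) did not pass the test. Mmp9 on chromosome 2 (gelatinase B) rose by 2.17 ± 0.47 (adjusted p = 0.0288), and the MMP inhibitor Timp1 by 1.60 ± 0.40 (adjusted p = 0.0496). The Mmp9 call was lost in 7 of the 16 fits without 1 library. The fibroblast-expressed genes Mmp2, Mmp14 and Timp2 gave 0.19 (adjusted p = 0.473), 0.42 (adjusted p = 0.113) and -0.25 (adjusted p = 0.446). In edgeR with a difference for each day, Mmp14 gave 0.11 at day 4 and 0.74 at day 7, where it passed (adjusted p = 0.0289). Mmp8 gave 0.40 and 3.09 and passed at neither day (day 7 adjusted p = 0.0560). The difference between days passed in edgeR for neither gene. These neighbours and inhibitors were named after their values were seen.

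The promoters of the 6 risen genes of the chromosome 9 cluster are shown because they share a match to the AP-1 motif. The mRNAs of the AP-1 subunits Fos and Jun rose in the same libraries. Protein was not measured, and a part of AP-1 in the MMP rise was not tested. The motif searched was TGANTCA on both strands. Each line gives 120 bases of the RefSeq promoter table (GRCm38.p6), from 110 bases before the transcription start to 10 after it, in the direction of transcription, with the match in capitals.
Mmp10: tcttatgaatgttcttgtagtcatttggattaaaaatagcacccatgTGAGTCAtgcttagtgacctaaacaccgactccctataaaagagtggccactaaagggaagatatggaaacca
Mmp13: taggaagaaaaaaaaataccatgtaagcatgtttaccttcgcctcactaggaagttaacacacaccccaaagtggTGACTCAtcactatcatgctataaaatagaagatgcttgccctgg
Mmp3: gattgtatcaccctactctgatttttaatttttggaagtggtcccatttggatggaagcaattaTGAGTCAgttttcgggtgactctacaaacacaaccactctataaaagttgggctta
Mmp12: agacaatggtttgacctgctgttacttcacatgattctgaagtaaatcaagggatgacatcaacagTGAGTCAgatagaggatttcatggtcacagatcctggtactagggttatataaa
Mmp1b: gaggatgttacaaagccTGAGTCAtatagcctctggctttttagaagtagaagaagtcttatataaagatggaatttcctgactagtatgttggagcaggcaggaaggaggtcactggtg
Mmp1a: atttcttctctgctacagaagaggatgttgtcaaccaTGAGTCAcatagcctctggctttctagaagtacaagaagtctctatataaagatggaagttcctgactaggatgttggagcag
The stretches lie at chr9:7502232-7502351 (Mmp10, plus strand), chr9:7272404-7272523 (Mmp13, plus), chr9:7445712-7445831 (Mmp3, plus), chr9:7347264-7347383 (Mmp12, plus, the downstream of its 2 listed starts), chr9:7388017-7388136 (Mmp1b, minus) and chr9:7464031-7464150 (Mmp1a, plus). The match begins 63, 35, 46, 44, 93 and 73 bases before the start in that order. In the whole table window of 300 bases (250 before the start and 50 after it), TGANTCA was in 7.81% of 32851 promoters and in 7.24% of the 12411 tested genes that have one. Among risen genes with a promoter it was in 29 of 221 (13.1%). The match was not restricted to risen genes. The windows of Mmp8, Mmp27 and the upstream start of Mmp12 hold none, whereas Mmp20 and Mmp7, next in the cluster and removed by the filter on low counts, hold one (Mmp7 in 1 of its 2 windows). A match is a run of letters and is no measure of binding.

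In the wider list of tissue repair and matrix remodelling, 17 of 25 members rose and none fell (68.0% against 2.03% of all genes). The list's median log2 fold change was 1.60. This list had been drawn up with earlier results of these data known. The urokinase receptor Plaur (2.08) and urokinase Plau (0.89), which act in plasmin formation, rose. Inhba, a subunit of activin A, ran from 0.423 to 1.67 CPM in vehicle and from 2.49 to 20.6 CPM in LPC libraries without overlap (2.96 ± 0.51, adjusted p = 0.0121). The EGF receptor ligands Areg (2.83 ± 0.66, adjusted p = 0.0395) and Hbegf (1.74) rose, as did Adam8 (1.38), Thbs1 (1.31), the fibronectin receptor chain Itga5 (1.03) and Tgfb1 (0.72). The matrix gene Postn gave 0.12 (adjusted p = 0.875) and Fn1 0.60 (adjusted p = 0.170). The 20 collagens and fibroblast matrix genes gave no call in edgeR's test and 1 in DESeq2, with a median of 0.30. That count was 1 without LPC day 7 mouse 4 and 3 without LPC day 7 mice 2 and 4. The repair count was 9 without LPC day 7 mouse 3 or vehicle day 7 mouse 3 or 4, and 10 without LPC day 4 mouse 4, LPC day 7 mouse 1 or vehicle day 4 mouse 3. It was 11 without LPC day 4 mouse 1, vehicle day 4 mouse 1 or vehicle day 7 mouse 1 or 2, and 22 without LPC day 7 mice 2 and 4 together.

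Hypoxia and glycolysis genes were mostly higher with LPC. Of 20 members 10 rose and none fell (median log2 fold change 0.88), and the count stayed between 7 and 13 whichever library was left out. It was 16 without LPC day 7 mice 2 and 4. Adm, the gene of adrenomedullin (a peptide that widens vessels), was at 7.14, 8.82 and 15.8 CPM in vehicle and at 26.2, 39.7 and 112 CPM in LPC libraries (lowest, median and highest). The groups did not overlap (2.29 ± 0.31, adjusted p = 0.00791). P4ha1, a collagen prolyl hydroxylase, ran from 22.7 to 41.8 CPM in vehicle and from 45.0 to 80.0 CPM in LPC libraries, also without overlap, for a smaller log2 fold change of 0.94 ± 0.14 (adjusted p = 0.00791). Car9, a carbonic anhydrase of hypoxic cells, rose by 2.69 ± 0.50 (adjusted p = 0.0151) and Ndrg1 by 1.96 ± 0.32 (adjusted p = 0.00974). The glucose transporter Slc2a1 (1.75 ± 0.34) and the vascular growth factor Vegfa (1.55 ± 0.27) rose as well, with Vegfa at 43.3 to 90.1 CPM in vehicle and 114 to 411 CPM in LPC libraries. Ankrd37, Ero1l, Pfkfb3 and Pfkp made up the 10. Ldha (0.45, adjusted p = 0.24) and Bnip3 (0.22, adjusted p = 0.64) did not pass the test.

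The promoters of Adm, Car9 and P4ha1 are shown because they carry the core letters of the hypoxia response element in risen genes of this list. The letters searched were ACGTG and GCGTG on both strands, and neither can lie within TGANTCA. Each line gives 180 bases ending 10 bases after the transcription start (RefSeq, GRCm38.p6, direction of transcription), with matches in capitals, which read CACGT or CACGC where the core is on the other strand.
Adm: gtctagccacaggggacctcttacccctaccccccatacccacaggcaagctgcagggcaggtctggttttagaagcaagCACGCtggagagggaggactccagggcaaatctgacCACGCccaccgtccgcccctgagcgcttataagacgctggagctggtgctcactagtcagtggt
Car9: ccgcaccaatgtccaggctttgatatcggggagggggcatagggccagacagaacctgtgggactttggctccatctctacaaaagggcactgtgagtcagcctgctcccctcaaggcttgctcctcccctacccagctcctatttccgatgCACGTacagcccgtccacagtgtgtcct
P4ha1: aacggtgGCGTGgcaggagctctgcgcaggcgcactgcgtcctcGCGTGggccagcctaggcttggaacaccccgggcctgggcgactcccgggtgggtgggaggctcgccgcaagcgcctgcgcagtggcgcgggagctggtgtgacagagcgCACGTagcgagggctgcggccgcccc
They lie at chr7:110627487-110627666 (Adm, plus strand), chr4:43506856-43507035 (Car9, plus) and chr10:59323126-59323305 (P4ha1, plus). The core was in the window of all 9 risen members that have a promoter in the table, and equally of all 19 tested members that have one, risen or not. It was also in 63.0% of all tested genes with a promoter, and in 71.0% of the risen ones. The Car9 stretch also holds a match to TGANTCA, left in lower case. That motif was in 1 of the 9 risen members with a promoter and in 2 of the 19 tested ones.

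A few genes of vessel growth rose. Pgf, placental growth factor, was at 1.21, 2.12 and 4.71 CPM in vehicle and at 4.05, 19.9 and 52.4 CPM in LPC libraries (3.15 ± 0.50, adjusted p = 0.00918). In the list of vascular growth and endothelial genes 3 of 20 rose, the tip cell genes Apln (2.54 ± 0.53, adjusted p = 0.0243), Esm1 (1.49 ± 0.30, adjusted p = 0.0208) and Angpt2 (1.18 ± 0.23, adjusted p = 0.0179). The list's median was 0.07, with 11 members positive and 9 negative. Its own medians at day 4 and day 7 were -0.41 and 0.61, so the list as a whole did not rise at both days. Its 3 calls of 20 stand beside 2.03% of all genes. The count was 1 without LPC day 7 mouse 3 or vehicle day 4 mouse 3, 0 without vehicle day 7 mouse 3, and 9 without LPC day 7 mice 2 and 4.

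Stress response genes rose in part. Gdf15, a stress-induced hormone of the TGF-beta family, was at 0.265, 0.562 and 0.979 CPM in vehicle libraries and at 1.76, 3.80 and 7.10 CPM in LPC libraries (lowest, median and highest). The groups were apart and the log2 fold change was 2.74 ± 0.34 (adjusted p = 0.00492), or 6.67-fold. In the list of unfolded protein and integrated stress genes 4 of 23 rose and none fell (17.4% against 2.03% of all genes, median 0.46). The others were Ppp1r15a (GADD34, 1.23 ± 0.24, adjusted p = 0.0205), the chaperone Hspa5 (BiP, 0.83 ± 0.16, adjusted p = 0.0154) and Dnajb9 (0.56). That count was 2 without LPC day 4 mouse 4, vehicle day 4 mouse 3 or vehicle day 7 mouse 3, 7 without LPC day 7 mouse 2, and 12 without LPC day 7 mice 2 and 4.

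Hmox1, the haem-degrading enzyme, was at 48.9, 62.2 and 113 CPM in vehicle and at 102, 199 and 298 CPM in LPC libraries, with overlap only between 102 and 113 CPM (1.57 ± 0.23, adjusted p = 0.00791). Of 20 NRF2 target genes 3 rose and none fell (median 0.33). Besides Hmox1 these were Ugdh (0.86 ± 0.21, adjusted p = 0.0448) and Blvrb (0.48 ± 0.12, adjusted p = 0.0483), a biliverdin reductase acting after Hmox1. With 1 library left out the count ran from 1 to 6, and it moved by under 1.5 times only without LPC day 4 mouse 2, LPC day 4 mouse 3, LPC day 7 mouse 3, vehicle day 7 mouse 2 or vehicle day 7 mouse 4. It was 10 without LPC day 7 mice 2 and 4. The 7 tested red blood cell markers had a median log2 fold change of 1.37 with no call in edgeR's test (4 in DESeq2, and 4 in edgeR without LPC day 7 mouse 4, with or without mouse 2). Their summed level had medians of 65.5 and 97.2 CPM in vehicle and 263 and 287 CPM in LPC libraries at day 4 and day 7. The part of blood in the Hmox1 result was not tested.

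Ptgs2 (cyclooxygenase 2), which makes prostaglandin precursors, was at 3.18, 22.8 and 53.7 CPM in vehicle and at 46.1, 275 and 1015 CPM in LPC libraries (3.76 ± 0.74, adjusted p = 0.0190). Nos2, the inducible nitric oxide synthase, rose by 2.97 ± 0.56 (adjusted p = 0.0154) and Spp1 (osteopontin) by 3.03 ± 0.52 (adjusted p = 0.0121). Nos2 and Spp1 were the only called members among 26 monocyte and macrophage genes in edgeR's test. The list's median was 0.51 over both days, -0.17 at day 4 and 1.02 at day 7. The macrophage count was 10 without LPC day 7 mice 2 and 4. Among 22 neutrophil and neutrophil recruitment genes the single call in edgeR's test was Mmp9, although the median log2 fold change was 1.64 and all 22 were positive. The list's own medians at day 4 and day 7 were 0.56 and 2.53. DESeq2 called 9 of the 22 genes, limma-voom 14, and edgeR with the replicate block within day 5. The neutrophil count moved between 0 and 4 without single libraries. It was 0 without LPC day 4 mouse 1 or 4, LPC day 7 mouse 1 or 3 or vehicle day 7 mouse 2, 3 or 4, 2 without LPC day 7 mouse 2, 4 without LPC day 7 mouse 4, and 9 without both of the latter.

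**Figure D4:**
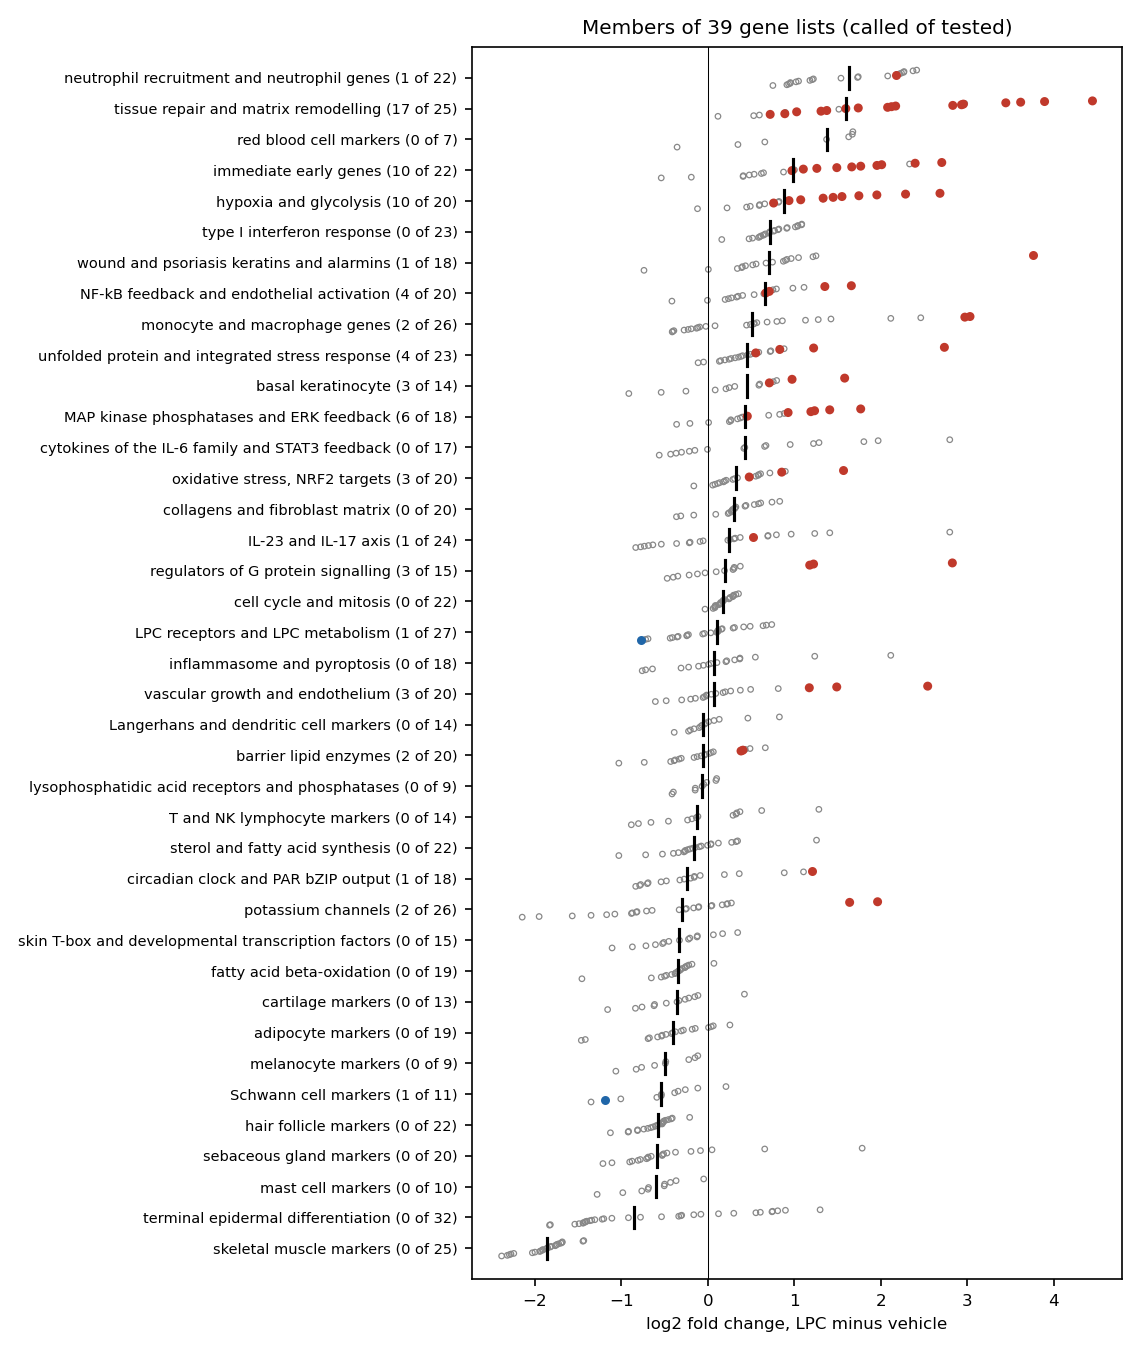
Log2 fold change of LPC minus vehicle for every tested member of 39 gene lists, ordered by list median (black bar), with called genes filled (red risen, blue fallen). Labels give called of tested genes. Repair genes (17 of 25), immediate early genes (10 of 22) and hypoxia genes (10 of 20) hold most calls, and the muscle list, lowest at a median of -1.86, holds none.

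The cytokines of the IL-23 and IL-17 axis did not pass the test over both days. Il23a gave 0.38 ± 0.54 (adjusted p = 0.700), Il22 gave -0.78 ± 1.22 (adjusted p = 0.730) and Il17a gave 0.23 ± 1.51 (adjusted p = 0.943). Their own day 4 and day 7 differences were -0.55 and 1.35 for Il23a, -4.39 and 1.20 for Il22 and -3.70 and 2.84 for Il17a. The common term averages these unlike values. None of them passed at either day in edgeR, nor did the differences between days. Il17a had no count in 2 of 8 vehicle and 2 of 8 LPC libraries, and Il22 in 2 and 3, which allows up to 0.149 to 0.160 CPM by library (3 counts, counting error only). The highest libraries reached 2.75 CPM (vehicle) and 7.22 CPM (LPC) for Il17a. Of the 24 axis genes tested only the receptor chain Il17ra was called (4.17% against 2.03% of all genes), rising by 0.52 ± 0.10 (adjusted p = 0.0206). That count was 0 without LPC day 4 mouse 4 or vehicle day 7 mouse 3, 2 without LPC day 4 mouse 2, LPC day 4 mouse 3 or LPC day 7 mouse 2, 3 without LPC day 7 mouse 4, and 4 without both LPC day 7 mice 2 and 4.

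Several inflammatory genes had large mean differences that missed the threshold in edgeR's test of the common term. Tnf ran from 3.62 to 12.0 CPM in vehicle and from 8.08 to 44.8 CPM in LPC libraries (1.41 ± 0.37, adjusted p = 0.0605). In edgeR it passed without LPC day 4 mouse 2 (0.041) or 3 (0.049), or LPC day 7 mouse 2 (0.030) or 4 (0.032), as adjusted p. Cxcl1, a neutrophil attractant, gave 2.24 ± 0.67 (adjusted p = 0.0879, and 0.049 without LPC day 7 mouse 2 or mouse 4). Il6 gave 2.80 ± 0.97 (adjusted p = 0.126), Nlrp3 gave 2.12 ± 0.67 (adjusted p = 0.101), Csf3 gave 2.37 ± 1.04 (adjusted p = 0.207) and Il1b gave 1.24 ± 0.81 (adjusted p = 0.380). Tnf, Cxcl1, Nlrp3 and Il6 passed in DESeq2 and in limma-voom. They also passed in edgeR without LPC day 7 mice 2 and 4, a choice of libraries that favours calls. Over the 16 alternatives other than leaving out 1 library, their adjusted p ran from 0.00357 to 0.186 (Tnf), 0.0087 to 0.315 (Cxcl1), 0.0107 to 0.338 (Nlrp3) and 0.0091 to 0.401 (Il6). Csf3 passed in limma-voom (adjusted p = 0.0152). The day 4 and day 7 differences were 0.94 and 1.89 for Tnf, 1.05 and 3.44 for Cxcl1 and 1.20 and 4.38 for Il6. They were 1.48 and 2.75 for Nlrp3, 0.30 and 4.48 for Csf3 and 0.29 and 2.18 for Il1b. In edgeR with a difference for each day, Cxcl1 (adjusted p = 0.0387) and Csf3 (0.0385) passed at day 7. None of these genes passed at day 4, and none of their differences between days passed in edgeR. For Il6 the highest LPC library stood at 117 CPM against an LPC median of 5.84 and a vehicle range of 0.489 to 8.4 CPM.

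Among 14 basal keratinocyte genes 3 rose and none fell (21.4% against 2.03% of all genes, median 0.45). They included the laminin chain Lama3 (0.98 ± 0.22, adjusted p = 0.0339) and the integrin chain Itgb1 (0.71 ± 0.14, adjusted p = 0.0216), both parts of the anchorage to the basement membrane. The anchoring integrin chains Itga6 (0.59, adjusted p = 0.116) and Itgb4 (0.60, adjusted p = 0.170) did not pass the test. That count was 0 without LPC day 7 mouse 1 or 3, vehicle day 4 mouse 3 or vehicle day 7 mouse 3, 1 without LPC day 4 mouse 4 or vehicle day 4 mouse 1, 5 without LPC day 7 mouse 2 or 4, and 10 without both. The 32 genes of terminal differentiation gave no call in edgeR's test (13 in DESeq2), with a median of -0.85. That count was 2 without LPC day 7 mouse 2, 1 without mouse 4 and 4 without both. Krt10 gave -0.78 ± 0.51 (adjusted p = 0.384), Krt2 -1.83 ± 1.16 (adjusted p = 0.365) and Lor -1.20 ± 0.48 (adjusted p = 0.174). Their own day 4 and day 7 differences were 0.69 and -2.24 for Krt10, 0.58 and -4.24 for Krt2 and -0.15 and -2.26 for Lor, so that the common term averages unlike values. Of 18 wound and psoriasis keratin and alarmin genes the single call was Ptgs2, and 17 were positive with a median of 0.71. The number called was 3 without LPC day 7 mouse 2 and 5 without LPC day 7 mice 2 and 4. The neutrophil alarmin genes S100a8 (0.92, adjusted p = 0.406) and S100a9 (1.05, adjusted p = 0.355) and the wound keratin Krt16 (0.67, adjusted p = 0.323) did not pass. The 22 cell cycle genes gave no call by edgeR or DESeq2, 1 by limma-voom, and 1 in edgeR without LPC day 7 mice 2 and 4, with a median of 0.17.

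In the list of genes that act on LPC itself, the share called over both days was near that of all genes. Among 27 LPC receptor and LPC metabolism genes 1 fell and none rose (3.70% against 2.03% of all genes), with a median of 0.10. Liph, a phospholipase that makes lysophosphatidic acid and is needed for hair growth in humans, was at 8.36, 15 and 27.2 CPM in vehicle and 8.01, 8.91 and 10.6 CPM in LPC libraries (-0.77 ± 0.18, adjusted p = 0.0395). The call was lost in 12 of the 16 fits without 1 library, all but those without LPC day 7 mouse 2 or 4 or vehicle day 7 mouse 2 or 4, and the list's count was 7 without both of these LPC libraries. The receptor Gpr132, reported to respond to LPC, gave 0.64 ± 0.24 (adjusted p = 0.157) and Pla2g7, which hydrolyses oxidised phospholipids, 0.74 ± 0.28 (adjusted p = 0.157). The day 4 and day 7 differences were 0.11 and 1.16 for Gpr132, -0.10 and 1.58 for Pla2g7, and -1.24 and -0.30 for Liph. In edgeR with a difference for each day, Gpr132 (adjusted p = 0.0404) and Pla2g7 (0.0103) passed at day 7. Liph passed at day 4 (0.0249). The common term averages these values, and none of these differences between days passed in edgeR. Autotaxin Enpp2 gave -0.34 ± 0.29 (adjusted p = 0.503), Lpcat2 gave 0.42 ± 0.14 (adjusted p = 0.123) and Lpcat1 gave 0.12 ± 0.13 (adjusted p = 0.592). None of the 9 lysophosphatidic acid receptors and phosphatases was called by edgeR or DESeq2, and 1 was in edgeR without LPC day 7 mice 2 and 4. Outside the list, the secreted phospholipase Pla2g3 fell with no overlap, from 3.61, 5.54 and 7.91 CPM in vehicle to 1.5, 2.76 and 3.17 CPM in LPC libraries (-1.10 ± 0.19, adjusted p = 0.0129). It makes LPC from phosphatidylcholine. In the barrier lipid list 2 of 20 rose (10.0% against 2.03% of all genes). Among them was the sphingolipid gene Sptlc2, by a small amount (0.39 ± 0.08, adjusted p = 0.0288). That barrier count was 0 to 2 without single libraries and held at 2 only without LPC day 4 mouse 2, LPC day 7 mouse 2, LPC day 7 mouse 4 or vehicle day 7 mouse 2, and it was 5 without LPC day 7 mice 2 and 4.

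Among the fallen genes, Perm1, a muscle regulator of PGC-1 and ERR, fell without overlap, from 89.9, 117 and 185 CPM in vehicle to 33.9, 66.6 and 87.7 CPM in LPC libraries (-0.89 ± 0.18, adjusted p = 0.0203). Myl10, a myosin light chain gene, fell by 2.87 ± 0.51 on the log2 scale (adjusted p = 0.0129) and Kcne1l, a potassium channel accessory subunit, by 2.48 ± 0.51 (adjusted p = 0.0243). Prx (periaxin) fell by 1.18 ± 0.28 (adjusted p = 0.0396) and Drp2, its partner in the Schwann cell membrane complex, by 1.11 ± 0.28 (adjusted p = 0.0497). Of 11 Schwann cell markers only Prx was called, and 10 were negative with a median of -0.53. Calcb, a calcitonin gene-related peptide gene of sensory neurons, gave -1.38 ± 0.28 (adjusted p = 0.0234), the calcium channel Cacna1e -1.17 ± 0.29 (adjusted p = 0.0486) and the ATP-gated channel P2rx2 -1.41 ± 0.34 (adjusted p = 0.0475). These 3 calls were lost in 6, 12 and 11 of the 16 fits without 1 library. The remaining named falls were Agrp (-1.95), Fgf1 (-1.12), the T cell integrin Itgae (-0.94), Sh3rf2 (-0.83), Fut1 (-0.83) and the anandamide hydrolase Faah (-0.83). In that order their calls were lost in 13, 8, 7, 11, 10 and 12 of the 16 fits without 1 library. The Prx and Drp2 calls were lost in 12 and 14 of the 16 fits without 1 library. The Schwann count was 0 in 12 of them, 1 without LPC day 7 mouse 2 or vehicle day 7 mouse 1 or 2, 2 without LPC day 7 mouse 4, and 4 without LPC day 7 mice 2 and 4. The summed level of the 11 Schwann markers had medians of 674 and 432 CPM in vehicle and 432 and 321 CPM in LPC libraries at day 4 and day 7.

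Beside these falls, all 25 tested skeletal muscle markers were negative over both days (median -1.86), with no call in edgeR's test (smallest adjusted p 0.139), 2 calls in DESeq2, 23 in limma-voom and 22 from day 4 libraries alone, and the list median was -4.04 at day 4 and 0.28 at day 7. Their summed level had medians of 37262 and 10177 CPM in vehicle libraries and of 1158 and 11121 CPM in LPC libraries at day 4 and day 7. A mean log2 muscle score per library ran from 6.16 to 10.1 in vehicle and from 3.30 to 9.04 in LPC libraries. With that score as a covariate 802 genes were called, of which 136 were among the 320. The repair, hypoxia and immediate early counts were then 8, 6 and 7, and those of the vascular, macrophage and type I interferon lists 10, 9 and 14. Without LPC day 7 mouse 2, 3 of the 25 muscle genes were called, and without LPC day 7 mice 2 and 4 24 were. Adipocyte markers had a median of -0.40, hair follicle markers -0.58 and sebaceous markers -0.59, with no calls in edgeR's test and 0, 0 and 2 in DESeq2. The medians of these lists at day 4 and day 7 were -1.99 and 1.06, -0.92 and 0.01, and -0.20 and -0.93 in that order. Without LPC day 7 mice 2 and 4 their counts were 16, 0 and 5, and the adipocyte count was 1 without mouse 4 alone. The melanocyte (9 genes, median -0.49), mast cell (10 genes, -0.59), cartilage (13 genes, -0.35), T and NK lymphocyte (14 genes, -0.12) and Langerhans and dendritic cell markers (14 genes, -0.05) gave no call in edgeR's test, with 1 in DESeq2, in the mast cell list. Without LPC day 7 mice 2 and 4 the counts were 0, 4, 6, 3 and 2 in that order, and the Langerhans and dendritic count was 1 without vehicle day 7 mouse 2. All 9 melanocyte and all 10 mast cell genes were negative over both days. The list medians at day 4 and day 7 were 0.16 and -1.43 (melanocyte) and -0.40 and -0.79 (mast cell). No marker gene of these lists was at 0 in all libraries.

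Metabolic and signalling lists without a call in edgeR's test were those of fatty acid beta-oxidation (19 genes, 18 negative, median -0.34), sterol and fatty acid synthesis (22 genes, -0.16), inflammasome and pyroptosis (18 genes, 0.07) and the IL-6 family with STAT3 feedback (17 genes, 0.43). DESeq2 called 2, 1, 2 and 5 of them, and limma-voom 13, 2, 3 and 10. Without LPC day 7 mice 2 and 4 the edgeR counts were 9, 3, 3 and 11. The beta-oxidation count was 5 without LPC day 7 mouse 4 and 1 without mouse 2, the sterol count 1 without mouse 4, the inflammasome count 1 without mouse 2, and the IL-6 family count 1 without either. The 15 skin T-box and developmental transcription factor genes gave no call by edgeR or DESeq2, 2 by limma-voom and 2 in edgeR without LPC day 7 mice 2 and 4, with a median of -0.33.

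The common term held genes whose day 4 and day 7 differences had the same sign, as its selection favours. Of the 320 called genes 137 had the larger difference at day 4 and 183 at day 7, and 116 passed 2-fold at both. In a model with its own LPC difference for each day, 22 genes (0.139%) were called at day 4 and 604 (3.83%) at day 7. Of the 320, 14 were also called at day 4, 135 at day 7 and 5 at both, whereas 176 were called at neither day alone. Those 5 were Rgs1, Gdf15, Adm, Hmox1 and Mmp10. A total of 469 day 7 calls and 8 day 4 calls were not called by the common term. The difference between the days was called for no gene in edgeR (2674 genes at an unadjusted p below 0.05), for 561 in DESeq2 and for 9 in limma-voom. Among the 320 genes its lowest adjusted p in edgeR was 0.143. Without vehicle day 4 mouse 3 the difference was called for 214 genes.

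**Figure D5:**
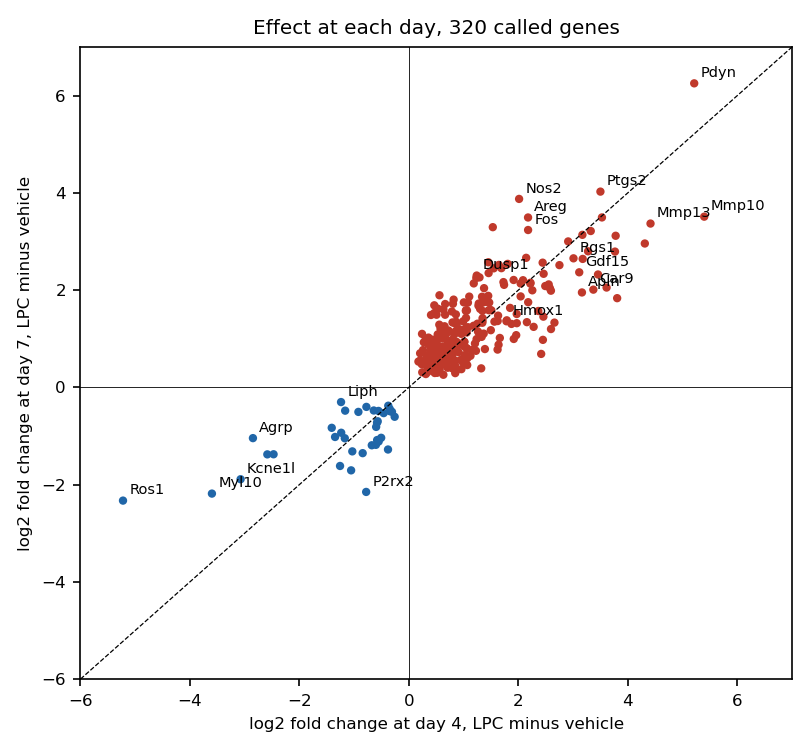
Each point is 1 of the 320 called genes, with its log2 fold change of LPC minus vehicle at day 4 on the x axis and at day 7 on the y axis, and the dashed line marks equal effects. Mmp10 (5.4 and 3.51) and Car9 (3.37 and 2.01) were larger at day 4, and Nos2 (2.01 and 3.88) and Areg (2.18 and 3.49) at day 7.

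The individual differences ran both ways around that line. Mmp10 was at 5.4 at day 4 and 3.51 at day 7, Agrp at -2.85 and -1.04, and Apln at 3.16 and 1.95. Nos2 was at 2.01 and 3.88, Dusp1 at 1.24 and 2.30 and Fos at 2.18 and 3.24. Pgf (3.17 and 3.14) and Inhba (2.91 and 3.00) were close at both days. None of these differences between days passed the test in edgeR.

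Of the 68 named genes that were called, 34 kept their call whichever library was left out. They included Rgs1, Gdf15, Adm, Fos, Jun, Atf3, Dusp1, Spred3, Errfi1, Rgs2, Hmox1, Hspa5, Inhba, Mmp10, Mmp13, Mmp3, Mmp12, Mmp1b, Ndrg1, Car9, P4ha1, Pgf, Spp1, Nos2, Ptgs2, Hmga2, Oaf, Tnfrsf23, Sdcbp and Hist2h2bb among the risen genes, and Pla2g3, Perm1 and Myl10 among the fallen. Another 5 (Angpt2, Ppp1r15a, Il17ra, Bhlhe40 and Esm1) missed the threshold narrowly in 2 or 3 fits, at adjusted p 0.0501 to 0.0586, without LPC day 4 mouse 4, LPC day 7 mouse 3, vehicle day 4 mouse 3 or vehicle day 7 mouse 3. The other 29 lost it in 5 to 14 fits. By library, the number of named calls lost was 22, 5, 14 and 30 without LPC day 4 mice 1 to 4 and 29, 1, 29 and 0 without LPC day 7 mice 1 to 4. It was 24, 17, 30 and 17 without vehicle day 4 mice 1 to 4, and 15, 11, 33 and 24 without vehicle day 7 mice 1 to 4. The genes outside all lists that kept their call had no overlap in Oaf (25.3 to 35 CPM against 40.3 to 90.8 CPM) and Hist2h2bb. They were close in Hmga2, a chromatin protein of growing tissue (2.61 to 11 CPM against 8.88 to 79.3 CPM, 2.63 ± 0.38), Tnfrsf23, a TRAIL decoy receptor (1.34 ± 0.20), and Sdcbp (syntenin, 0.84 ± 0.13), each at an adjusted p of 0.00791.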

How the data were processed

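RNA from 16 mouse ear skin lesions was sequenced on BGISEQ-500, aligned to GRCm38 with Bowtie2 and quantified by RSEM, per the labels' protocols and the submitters' processing notes; tool versions, annotation release and strand setting were not stated there. The authors deposited 1 table per library, with RSEM expected counts and FPKM (fragments scaled to transcript length and library size). Genes missing from a library's table were set to 0. The deposited expected counts were rounded and tested; the deposited FPKM served as an alternative scale. Totals were 18704197 to 20131513 counts, and 3657 of 19439 genes were removed by edgeR's filter over the 4 groups, leaving 15782. Libraries were scaled by TMM (factors 0.836 to 1.107), and CPM values are TMM-scaled.

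The model held day and treatment (13 residual degrees of freedom, common dispersion 0.142, biological coefficient of variation 37.7%). Treatment was tested with edgeR's quasi-likelihood test (edgeR 4.0.16, limma 3.58.1, DESeq2 1.42.0, R 4.3.3), with Benjamini-Hochberg adjustment over all genes. The SE of a log2 fold change was its size divided by the square root of the test's F. The procedure was checked on simulated data. A second model with treatment, day and their interaction gave each day's own difference. Groups came from the sample titles. No 2 libraries of the same group agreed within sampling noise (lowest chi-square per gene 16.6). Libraries of different groups were not compared in this way. Labels name separate mice, and p-values measure the spread between these mice.

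Mouse numbers are shared by the groups, and deviations of same-numbered libraries correlated at 0.0994 to 0.539 at day 4 and at -0.596 to 0.148 at day 7 (4 of 8 pairs above 0.1). Since not every pair was above 0.1, the numbers were not taken to pair the mice, although this rule cannot exclude pairing. Alternatives were median-of-ratios scaling, no filter or a stricter one (1 CPM in 8 libraries), DESeq2, limma-voom, limma on log2(FPKM + 0.1) and log2(FPKM + 1), no day term, the average of both days' effects, tissue score covariates, replicate blocks, each day alone and leaving out each library. Leaving out LPC day 7 mice 2 and 4 together and the adipocyte score were chosen after seeing the data. The 2 libraries were picked for lying with or beyond the vehicle libraries, which favours more calls without them.

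Gene lists (39, with 730 of 737 symbols matched) and the members described were chosen with earlier results of these data known. Named genes (82, of which 68 were called) are the 15 largest rises and 15 largest falls among called genes with a named symbol and a mean log2 CPM of 1 or more, up to 3 called members of each list, the 10 smallest p, the 5 smallest p outside all lists and a panel of 20 genes. Other members of a list are given where the list is described, and some called genes are not reported here. Promoters came from RefSeq (GRCm38.p6). Intervals and floors cover counting error only.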

Additional observations from a re-analysis of the deposited data

Results flagged for a closer look

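Within groups of 4 mice, 24 of 328 sets of values for named genes (7.32%) had 1 mouse far from the other 3, where chance gives about 1 in 20. In the vehicle day 4 group mouse 4 was high for Adm (15.8 CPM), Sdcbp (114.5 CPM) and Spred3 (14.1 CPM) and low for Blvrb (26.8 CPM). Mouse 3 of that group was high for Il17ra (65.9 CPM) and low for Bhlhe40 (93.9 CPM), Icam1 (58.3 CPM), Gpr132 (3.72 CPM) and Il1b (2.71 CPM). Mouse 1 was high for Kcne1l (9.21 CPM) and mouse 2 low for Tnf (7.71 CPM).

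In the LPC day 4 group mouse 2 was low for Atf3 (58.9 CPM) and high for Perm1 (87.7 CPM), and mouse 3 was low for Calcb (8.98 CPM) and Mmp9 (10.1 CPM). Mouse 4 was high for Pla2g7 (29.6 CPM), and mouse 1 was the only one of its group with counts of Il22 (0.160 CPM).

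At day 7 LPC mouse 1 was low for Pla2g3 (1.5 CPM) and Perm1 (33.9 CPM) and high for Gpr132 (18.7 CPM) and Il22 (5.12 CPM), and LPC mouse 2 was low for Nos2 (14.2 CPM). Among vehicle mice of day 7, mouse 4 was low for Itgb1 (220.6 CPM) and mouse 2 for Itgae (2.83 CPM). No library stood apart in more than 5 genes.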

How the results depend on the processing

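With all libraries, 320 genes were called (284 risen, 36 fallen, 150 past 2-fold). In that order the counts were 1310, 932, 378 and 474 with DESeq2, 3100, 1471, 1629 and 1101 with limma-voom, 642, 481, 161 and 266 for the average of both days' effects, 802, 576, 226 and 356 with the muscle score as covariate, 146, 134, 12 and 77 with the hair follicle score, 160, 139, 21 and 77 with the adipocyte score, 1333, 400, 933 and 856 from day 4 libraries alone, 45, 28, 17 and 38 from day 7 alone, and 4374, 2171, 2203 and 1567 without LPC day 7 mice 2 and 4. Without the day term 209 were called, 18 of them fallen. On FPKM with pseudocount 1 there were 177 risen, 57 fallen and 82 past 2-fold, and with 0.1 there were 57 fallen. With mouse number as a replicate block within day the counts were 168, 146, 22 and 89, and with the block across days 167, 151, 16 and 84, of which 128 and 162 genes were among the 320. The numbers were not taken to pair the mice, though 3 of 8 vehicle libraries, all of day 4, correlated best with their own number. Whether the numbers mark pairs is not stated in the labels. Leaving out 1 library gave 100 to 936 called, 94 to 643 risen, 5 to 293 fallen and 63 to 382 past 2-fold. Size factors, no filter and the stricter filter gave 320, 261 and 299 called, and those of the 320 genes tested in an alternative kept their sign in it. The cause of these shifts was not tested.

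The difference between days was called for 0 genes, and for 1 with median-of-ratios scaling, FPKM with pseudocount 1 or the replicate block within day, 561 with DESeq2, 9 with limma-voom, 92 with the hair score, 12 without muscle, adipocyte and hair genes, 68 without LPC day 7 mice 2 and 4, and 0 to 214 without single libraries.

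The direction reversed only for genes that were not called. Il17a (0.23) became -0.33 with DESeq2, -0.43 as the average of both days, -0.21, -0.37, -0.055 and -0.35 without vehicle day 7 mice 1 to 4, and -0.67 without LPC day 7 mouse 1, and leaving out 1 library spanned -0.67 to 2.16. Il22 (-0.78) became 0.024 on FPKM with pseudocount 1, 0.25 without the day term, 0.43 with the muscle score, 0.33 with the replicate block within day, 1.18 at day 7 alone and 0.67 without vehicle day 4 mouse 4, with -1.36 to 0.67 over all libraries left out in turn. At day 4 alone Pla2g7 became -0.14, Krt2 0.56, Krt10 0.67 and Il23a -0.60. Of 68 called named genes, 26 lost their call under no alternative other than leaving out a library or using 1 day alone.

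Depth differed by under 1.5 times between libraries, and the 3657 genes under the low-count filter were not tested.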

Other observations

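Other gene families, picked after their values were seen, moved beyond the lists above. Of 46 replication-dependent histone genes 7 rose and none fell (15.2% against 2.03% of all genes), with a median log2 fold change of 0.98. They were the linker histone genes Hist1h1d (3.27 ± 0.56), Hist1h1a (2.77 ± 0.62), Hist1h1b (2.77 ± 0.51) and Hist1h1e (2.76 ± 0.46), and Hist2h2bb (2.18 ± 0.33), Hist1h4d (1.74 ± 0.42) and Hist1h3e (1.38 ± 0.33), at edgeR adjusted p between 0.00791 and 0.0465. Their levels were low, with vehicle medians from 0.0509 CPM (Hist1h1a) to 0.511 CPM (Hist1h3e), where 3 counts give 0.149 to 0.160 CPM. The histone genes of highest level, Hist1h1c (0.16), Hist2h2aa1 (-0.08) and Hist1h2bc (-0.20), were not called. Histone copies are nearly identical, so estimated counts can be split between them with error. The 22 cell cycle genes had no call by edgeR or DESeq2 and 1 by limma-voom, with a median of 0.17.

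All 3 tested Zfp36 family genes, whose products bring down AU-rich mRNAs, rose (Zfp36 1.26, Zfp36l2 0.82 and Zfp36l1 0.73). The hyaluronan synthase genes Has1 (2.09 ± 0.43, adjusted p = 0.0233) and Has2 (2.06 ± 0.41, adjusted p = 0.0208) rose, 2 of 3. Of 25 integrin genes 4 rose and 1 fell, against 2.03% of all genes called. The risen ones were the chains Itga2 (1.97), Itga5 (1.03), Itgb1 (0.71) and Itgb3 (0.63), and Itgae fell by 0.94 on the log2 scale. Among 5 CCN matricellular genes only Cyr61 rose (1.54 ± 0.25, adjusted p = 0.00932). The simple epithelial keratin Krt18 rose by 2.32 ± 0.49 (adjusted p = 0.0273), whereas its partner Krt8 gave -0.04 (adjusted p = 0.968). Of 68 heat shock genes 3 rose (4.41% against 2.03% of all genes, median 0.01).

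Wnt7a, an epidermal Wnt ligand, was at 0 to 0.208 CPM in vehicle and 0.213 to 1.81 CPM in LPC libraries (3.51 ± 0.55, adjusted p = 0.00918), with vehicle values near the level that 3 counts give. Il10, an anti-inflammatory cytokine, ran from 0.245 to 1.11 CPM in vehicle and from 1.12 to 3.63 CPM in LPC libraries (1.57 ± 0.33, adjusted p = 0.0282).

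The 23 type I interferon response genes were all positive with a median of 0.72 and no call in edgeR or DESeq2, also none in edgeR without LPC day 7 mice 2 and 4, but 14 with the muscle score as covariate, from medians of -0.32 at day 4 and 2.03 at day 7. Of 26 potassium channel genes Kcnn4 (1.96 ± 0.42, adjusted p = 0.0288) and Kcne4 (1.64 ± 0.40, adjusted p = 0.0471) rose while the list median was -0.29. Those calls were lost in 10 and 12 of the 16 fits without 1 library. The potassium channel count was 0 to 4 over these fits and 16 without LPC day 7 mice 2 and 4. Of 18 clock genes only Bhlhe40 rose (1.20 ± 0.24, adjusted p = 0.0206), with a list median of -0.23. The clock count was 0 without LPC day 4 mouse 4, vehicle day 4 mouse 3 or vehicle day 7 mouse 3, and 3, 4 and 5 without LPC day 4 mouse 2, LPC day 7 mouse 2 and LPC day 7 mouse 4. It was 8 without both of these day 7 mice.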
